A study of Mus musculus with 70 samples.

Results

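The measurements below concern 5 genes of myeloid growth factor signalling, the ligands Il34, Csf1, Csf2 and Csf3 and the receptor gene Csf1r, out of 21154 genes named on the arrays. They were chosen by gene name. The rule found 9 of the 55681 probes, 1 each for Il34, Csf2 and Csf3, and 3 each for Csf1 and Csf1r. RENCA is a renal carcinoma cell line from BALB/c mice, and all cells in the study carried GFP from a lentiviral vector. Cells were implanted in wild-type female BALB/c mice aged 6 weeks, recovered, cultured and implanted again, through passages P1 to P6. In the KPT route cells were placed under the kidney capsule and recovered from the primary tumour, in the T-LM route they were injected in the tail vein and recovered from the lung, and in the K-LM route they were placed under the kidney capsule and recovered from lung metastases. P0 is the parental line before any mouse, a single line measured in 2 RNA samples. The recovered cells were kept in culture until GFP-negative cells were no longer seen, so the arrays measured cultured lines rather than tumour tissue, although the labels name a tissue homogeniser for the extraction.

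The 65 RNA samples gave 70 arrays, because 5 of them were run a second time, namely P0 replicates 1 and 2 and replicates 1, 2 and 4 of KPT P6, which the labels call a second batch. KPT had 5, 2, 2, 3, 5 and 5 samples from P1 to P6. For T-LM the numbers were 5, 2, 3, 4, 6 and 4. For K-LM they were 1, 1, 5, 3, 4 and 3. All K-LM P6 arrays and the 5 repeats lay on 1 slide, the late slide, and the other 62 arrays lay on 8 slides. The share of probes that the scanner software called well above background ran from 25.1% to 55.1% per array (median 32.9%). A level here is the log2 of the processed signal minus the log2 of the 75th percentile of the array, so 0 is that percentile and a difference of 1 is a doubling. The labels do not say that samples of a group came from separate mice, and the p-values measure the spread between these samples, which may be partly technical.

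IL-34 and CSF1 (M-CSF) are unrelated secreted proteins that bind the same receptor tyrosine kinase, CSF1R, which monocytes, macrophages and their precursors need for survival and differentiation. CSF2 (GM-CSF) and CSF3 (G-CSF) act through separate cytokine receptors, on granulocytes and macrophages and on neutrophils respectively. Epithelial and stromal cells make these ligands, and renal tubular cells are a known source of CSF1 and IL-34. In kidney tumours the factors are known for the recruitment and maintenance of tumour-associated myeloid cells.

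The upstream sequence of Csf1 and Csf2 is shown because both ligands differed between routes at P6 and the reference table held their sequence. Each line gives the 250 bases before the annotated start, 5′ to 3′ on the minus strand, from RefSeq on GRCm38.p6 (Csf1 at chr3:107760470-107760719, Csf2 at chr11:54249900-54250149). Capitals mark a match to the NF-kB consensus.
Csf1: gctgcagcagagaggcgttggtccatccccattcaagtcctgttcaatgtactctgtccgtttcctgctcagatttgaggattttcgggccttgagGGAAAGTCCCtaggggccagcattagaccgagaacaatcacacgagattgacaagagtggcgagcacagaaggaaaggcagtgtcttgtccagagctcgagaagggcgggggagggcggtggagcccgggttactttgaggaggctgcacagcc
Csf2: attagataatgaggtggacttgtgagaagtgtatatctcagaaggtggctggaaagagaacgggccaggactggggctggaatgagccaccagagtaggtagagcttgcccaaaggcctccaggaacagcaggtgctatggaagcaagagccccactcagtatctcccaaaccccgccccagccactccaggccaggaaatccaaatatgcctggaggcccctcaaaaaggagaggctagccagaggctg
The Csf1 match lay from -154 to -145 relative to the start. The search covered both strands for the NF-kB consensus, which 3.9% of 32851 promoter windows of this length held, for the AP-1 letters TGANTCA, held by 6.75%, and for the TATA letters TATAAA, held by 12.4%. No other match was in these 2 windows, so no matches overlapped.

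Il34 rose in all 3 routes. Its level was -4.47 and -4.56 in the 2 P0 samples. At P6 the KPT samples were at -0.41, -0.24, -0.22, -0.44 and -0.31. The T-LM samples were at -0.27, -0.17, -0.22 and -0.26, and the K-LM samples at -1.25, -1.04 and -0.77. Every P6 sample of each route was above both P0 samples. Il34 was well above background on all 70 arrays, so both ends of the change were measured.

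The fitted change of Il34 from P0 to P6 was 4.25 ± 0.367 (SE) in KPT, 19-fold, with an adjusted p of 6.77e-07 by limma. In T-LM it was 4.28 ± 0.302, 19.4-fold (limma adjusted p = 1.07e-08), and in K-LM 3.56 ± 0.284, 11.8-fold (limma adjusted p = 1.31e-08). Of the 5 members 2 were called in KPT (Il34 and Csf1), where 3.91% of all tested probes were called, 2 in T-LM (Il34 and Csf2) against 7.44%, and 1 in K-LM (Il34) against 4.88%. The rise of Il34 in KPT is not independent evidence, because the study placed the gene in its kidney-route signature using these samples. Within single slides that held both groups KPT differed from P0 by 4.06 and 4.19 (2 slides), T-LM by 4.25 (1 slide) and K-LM by 3.51 (the late slide).

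**Figure D1:**
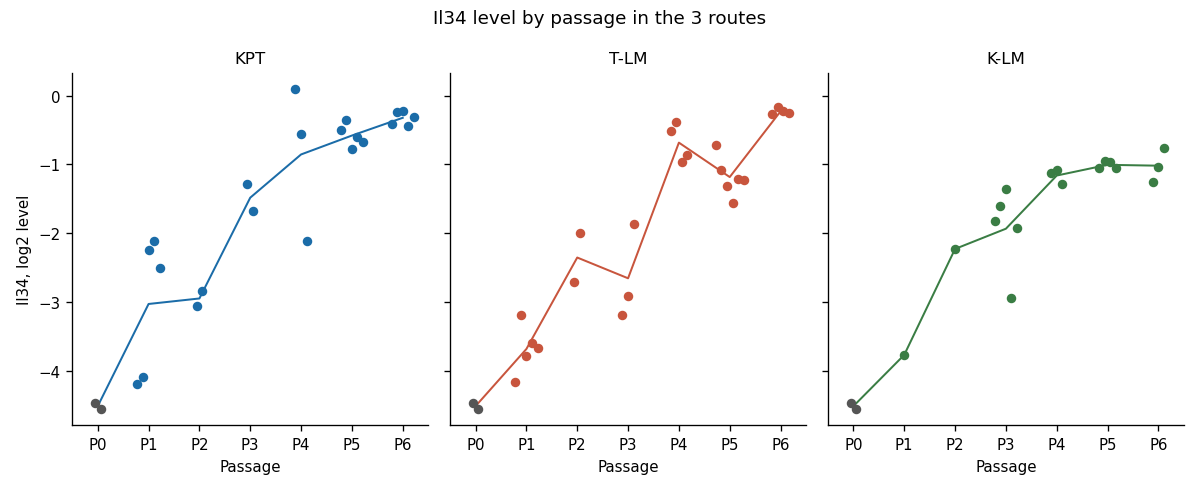
Level of Il34 (vertical axis, log2 relative to the 75th percentile of the array) at each passage (horizontal axis) in KPT, T-LM and K-LM. Each point is 1 RNA sample with repeat arrays averaged, grey points are P0, and the line joins group means. The means climb from -4.52 at P0 to -0.32 (KPT), -0.23 (T-LM) and -1.02 (K-LM) at P6.

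The rise was spread over passages. In KPT the Il34 level was -3.03 ± 1.0 (SD, n = 5) at P1, -2.95 ± 0.16 (n = 2) at P2, -1.48 ± 0.27 (n = 2) at P3, -0.86 ± 1.1 (n = 3) at P4, -0.58 ± 0.16 (n = 5) at P5 and -0.32 ± 0.097 (n = 5) at P6. The spread was wide at P1, where replicates 1 and 2 were at -4.19 and -4.09 and replicates 3, 4 and 5 at -2.24, -2.12 and -2.51, and narrow at P5 and P6. KPT P4 was also wide, with 0.10, -0.56 and -2.11.

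In T-LM the level was -3.68 ± 0.35 (SD, n = 5) at P1, -2.36 ± 0.50 (n = 2) at P2, -2.66 ± 0.70 (n = 3) at P3, -0.69 ± 0.28 (n = 4) at P4, -1.19 ± 0.28 (n = 6) at P5 and -0.23 ± 0.046 (n = 4) at P6. In K-LM it was -3.77 and -2.23 in the single samples of P1 and P2, -1.94 ± 0.61 (n = 5) at P3, -1.16 ± 0.10 (n = 3) at P4, -1.01 ± 0.062 (n = 4) at P5 and -1.02 ± 0.24 (n = 3) at P6. In the T-LM means the largest step fell between P3 and P4, and in K-LM the P6 samples overlapped with both P4 and P5.

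Il34 varied among the passages P1 to P6 of each route by limma's moderated F test. F was 15.7 in KPT (adjusted p = 0.000104), 60.6 in T-LM (adjusted p = 5.5e-09) and 17.0 in K-LM (adjusted p = 0.00012). In this test Il34 and Csf1 were called in KPT, where 23.4% of all probes were, Il34 and Csf2 in T-LM against 27.5%, and Il34 and Csf2 in K-LM against 12.8%.

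From P0 to P1 the fitted change of Il34 did not pass the threshold of an adjusted p of 0.01 in either route with more than 1 P1 sample, at 1.48 ± 0.506 in KPT (limma adjusted p = 0.062) and 0.83 ± 0.294 in T-LM (limma adjusted p = 0.079). Csf1 was the only member called from P0 to P1 in KPT, where 4.44% of probes were called, and no member was called in T-LM, where 2.61% were. Unadjusted limma p was under 0.05 for Il34 (0.0103) and Csf2 (0.00169) in T-LM. From P1 to P6 Il34 rose by 2.77 ± 0.382 in KPT, 6.81-fold (limma adjusted p = 4.65e-05, 11.6% of probes called), and by 3.45 ± 0.236 in T-LM, 10.9-fold (limma adjusted p = 1.35e-09, 9.36% called).

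The study's own late contrast runs from P3 to P6. Over it Il34 rose in T-LM by 2.43 ± 0.266 (limma adjusted p = 5.6e-06), where 7.13% of probes were called. In KPT the change was 1.22 ± 0.367 (limma adjusted p = 0.0586, 0.73% called), and in K-LM 1.05 ± 0.260 (limma adjusted p = 0.013, 3.52% called, with no member among them and an unadjusted p of 0.000585 for Il34). This K-LM change of Il34, not called in the main fit, passed without K-LM P3 replicate 3 (limma adjusted p = 0.00299) or replicate 4 (0.00845). It also passed with normexp background correction (limma adjusted p = 0.00528) and with the authors' normalised values (0.0073). With only probes well above background on all arrays of the fit it passed too (0.00894). Tested directly, the P3 to P6 change of Il34 differed by 1.23 ± 0.527 for T-LM over KPT (limma adjusted p = 0.531), with a difference of -1.38 ± 0.517 for K-LM over T-LM (limma adjusted p = 0.172) and of -0.15 ± 0.525 for K-LM over KPT (limma adjusted p = 0.989). In these interaction tests 0.207% (T-LM over KPT), 0.306% (K-LM over KPT) and 0.791% (K-LM over T-LM) of probes were called and no member was, with unadjusted p under 0.05 for Il34 (0.0232), Csf1 (0.0281) and Csf2 (0.00192) in T-LM over KPT and for Il34 (0.0101) and Csf2 (0.000391) in K-LM over T-LM.

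At P6 the K-LM lines held less Il34 than the others. The difference of K-LM from KPT was -0.60 ± 0.118 (limma adjusted p = 0.00113) and that from T-LM -0.65 ± 0.139 (limma adjusted p = 0.0026), while T-LM over KPT was 0.055 ± 0.102 (limma adjusted p = 0.79). Of the members 2 were called in T-LM over KPT (Csf1 and Csf2), where 11.5% of all probes were called, 2 in K-LM over KPT (Il34 and Csf1) against 16%, and 2 in K-LM over T-LM (Il34 and Csf2) against 12%. Restricted to late slide arrays, the difference from KPT was -0.55 (limma adjusted p = 0.0188). Without K-LM P6 replicate 1 it was -0.48 (limma adjusted p = 0.0126), and the difference from T-LM then had an adjusted p of 0.0174 by limma, or 0.0107 without replicate 2. With all routes and passages in 1 model both K-LM differences lost the call, with adjusted p of 0.335 and 0.368. For the repeated samples the late array read between 0.31 lower and 0.05 higher for Il34 than the first.

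In the order of group means of Il34 T-LM P6 was highest (-0.23), followed by KPT P6 and KPT P5, and K-LM P1 (-3.77) and P0 (-4.52) were lowest. Of the 18 pairs of neighbours in that order, 17 had overlapping ranges. The pair apart was K-LM P1, a single sample, and P0. At P5 KPT was highest at -0.58, and T-LM differed from it by -0.60 ± 0.138 (limma adjusted p = 0.0101) and K-LM by -0.43 ± 0.153 (limma adjusted p = 0.0673). At P5 no member was called in T-LM over KPT, where 5.42% of probes were called and unadjusted p was under 0.05 for Il34 (0.000551) and Csf1 (0.00782). The Il34 difference passed without T-LM P5 replicate 1, at -0.70 (limma adjusted p = 0.00175).

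The genes with the levels most like those of Il34 over the 65 RNA samples, of 11029 candidates, were Tnfrsf26 (Pearson r = 0.933), Faim2 (0.931) and Arhgap30 (0.923). The samples share routes, passages and slides, so these are descriptions.

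Csf1 was already high in the parental line and changed less. The results for this gene rest first on the probe with the highest signal (probe 1), annotated to transcript NM_007778 and spotted 10 times. Its level was -0.02 and 0.31 in P0. At P6 the KPT samples were at 1.14, 1.51, 1.49, 1.74 and 1.84. The T-LM samples were at 0.17, 1.14, 0.49 and 0.35, and the K-LM samples at 0.52, 0.56 and 0.87. All KPT P6 samples were above P0, while the T-LM P6 samples overlapped with P0.

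From P0 to P6 Csf1 by probe 1 rose in KPT by 1.51 ± 0.225, 2.84-fold (limma adjusted p = 0.000285), and the call was lost without P0 replicate 1 (1.27, limma adjusted p = 0.0221). The change was 0.46 ± 0.475 in T-LM (limma adjusted p = 0.665) and 0.53 ± 0.386 in K-LM (limma adjusted p = 0.521). In KPT most of it was present at P1, where the samples were at 1.03, 1.30, 1.01, 1.74 and 1.37 and the change from P0 was 1.21 ± 0.231 (limma adjusted p = 0.00231). That P1 call was lost without P0 replicate 1 (0.97, limma adjusted p = 0.0856) and without P0 replicate 2 (1.45, limma adjusted p = 0.0136). The RNA index, the mean level of 7 long mRNAs minus that of 55 ribosomal protein mRNAs, was -4.20 to -3.35 in KPT P1 against -4.70 and -4.54 in P0, and with it as a covariate the Csf1 change was 0.72 (limma adjusted p = 0.0781). Of 20 alternatives 12 kept the call.

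The KPT course was not monotonic. Probe 1 read 1.29 ± 0.30 (SD, n = 5) at P1, 0.49 ± 0.33 (n = 2) at P2, 0.32 ± 0.0096 (n = 2) at P3, 1.57 ± 0.096 (n = 3) at P4, 1.17 ± 0.26 (n = 5) at P5 and 1.54 ± 0.27 (n = 5) at P6. From P3 to P6 it rose by 1.27 ± 0.225 (limma adjusted p = 0.00794). The 2 KPT P3 samples also had a lower RNA index than any KPT P6 sample. It stood at -6.41 and -6.69 against -5.17 to -4.03 at P6. With that index as a covariate the P3 to P6 change was 0.44 (limma adjusted p = 1). The call was also lost without KPT P6 replicates 2, 3, 4 or 5 and without either KPT P3 sample, with changes of 1.19 to 1.30 and adjusted p up to 0.157.

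In T-LM probe 1 read 0.82 ± 0.36 (SD, n = 5) at P1, 0.85 ± 0.58 (n = 2) at P2, 0.44 ± 1.3 (n = 3) at P3, 0.83 ± 0.18 (n = 4) at P4, 0.58 ± 0.42 (n = 6) at P5 and 0.54 ± 0.42 (n = 4) at P6. The 3 samples of T-LM P3 lay at -0.82, 1.72 and 0.42. In K-LM probe 1 was at 1.09 and 0.97 in the single samples of P1 and P2, then 0.23 ± 0.85 (n = 5), 1.43 ± 0.068 (n = 3), 0.61 ± 0.14 (n = 4) and 0.65 ± 0.19 (n = 3). Over passages Csf1 by probe 1 varied in KPT (F = 9.99, limma adjusted p = 0.000876, and 0.0336 with the RNA index as a covariate), with F = 0.405 in T-LM (limma adjusted p = 0.861) and 3.12 in K-LM (limma adjusted p = 0.0767). Csf1 by probes 2 and 3 varied over the passages of T-LM, with F of 10.0 and 10.4 (limma adjusted p = 0.000533 and 0.000441).

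**Figure D2:**
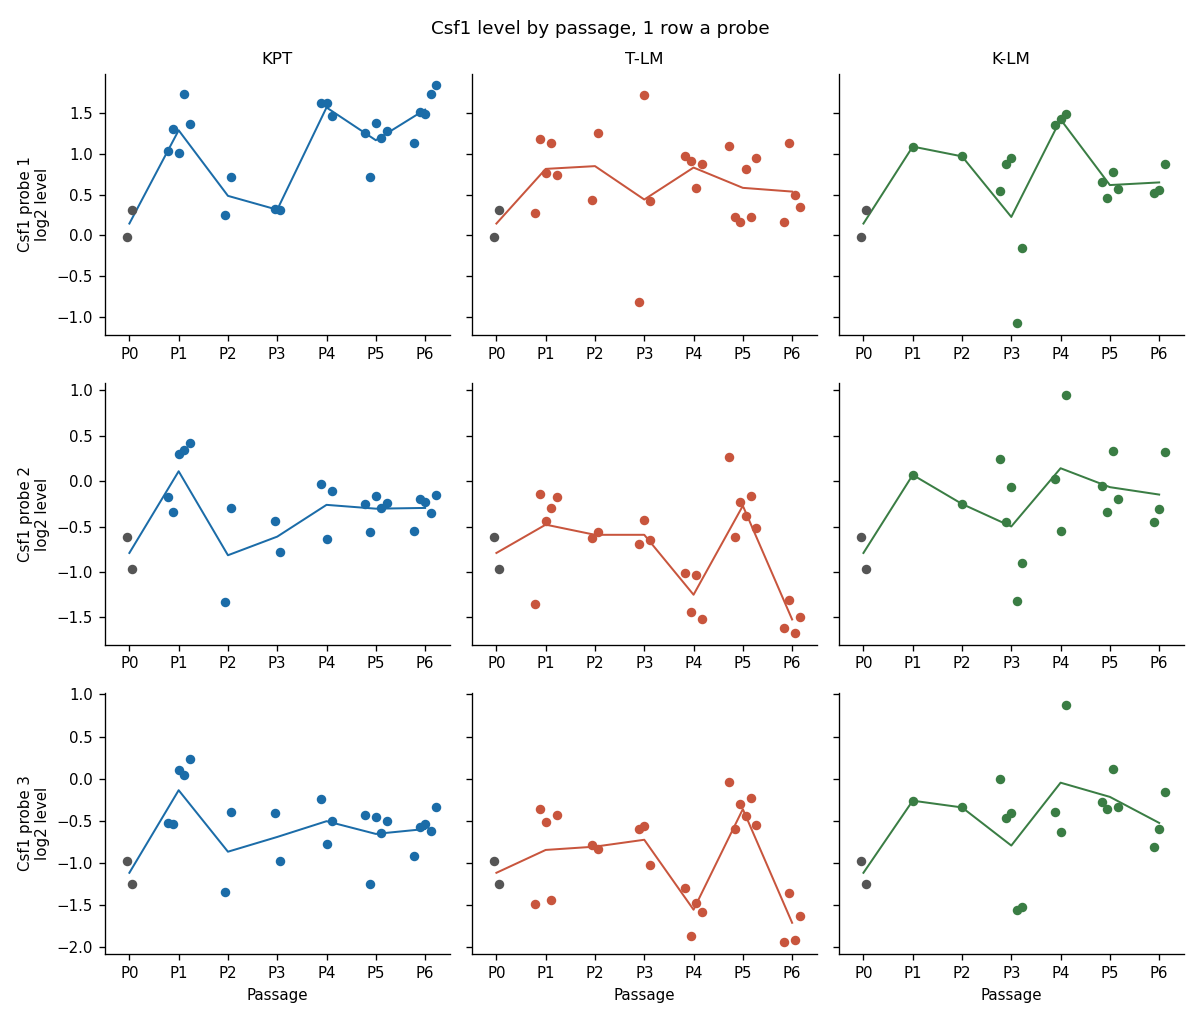
Level of Csf1 (vertical axis, log2 relative to the 75th percentile of the array) at each passage (horizontal axis), 1 row for each of its 3 probes and 1 column for each route. Points are RNA samples, grey points are P0 and lines join group means. In T-LM probes 2 and 3 end at -1.52 and -1.71 at P6, below their P3 means of -0.59 and -0.73, while probe 1 ends at 0.54.

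The probes of Csf1 disagreed in part. Probes 2 and 3, both annotated to transcript NM_001113530, correlated with each other over the 65 RNA samples at Pearson r = 0.94 and with probe 1 at 0.47 and 0.40. From P0 to P6 in KPT they changed by 0.61 ± 0.254 and 0.53 ± 0.288 (limma adjusted p = 0.2 and 0.352), without a call. From P3 to P6 in T-LM they fell by 0.930 ± 0.203 and 0.979 ± 0.202 (limma adjusted p = 0.00417 and 0.00267), where probe 1 changed by 0.10 ± 0.419 (limma adjusted p = 0.906). From P1 to P6 in T-LM the changes of probes 2 and 3 were -1.04 ± 0.217 (limma adjusted p = 0.00181) and -0.86 ± 0.229 (limma adjusted p = 0.0111). Whether the probes measured different transcripts was not tested.

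At P6 all 3 Csf1 probes were lower in T-LM than in KPT. For probe 1 the ranges met at 1.14, and the difference was -1.01 ± 0.188 (limma adjusted p = 0.000714). Probes 2 and 3 gave -1.12 ± 0.155 (limma adjusted p = 4.03e-05) and -1.02 ± 0.167 (limma adjusted p = 0.000226). With all routes and passages in 1 model the call for probe 1 was lost (limma adjusted p = 0.0306). K-LM was lower than KPT by probe 1 alone, at -0.83 ± 0.219 (limma adjusted p = 0.00895), while probes 2 and 3 both gave -0.03 (limma adjusted p = 0.916 and 0.922). K-LM was higher than T-LM by probes 2 and 3, at 1.08 ± 0.211 (limma adjusted p = 0.00134) and 0.99 ± 0.228 (limma adjusted p = 0.00472), with 0.18 ± 0.256 by probe 1 (limma adjusted p = 0.66).

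The probe 1 difference of K-LM from KPT lost its call without any 1 of 7 of the 8 samples compared. Only the fit without KPT P6 replicate 1 kept it.

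Over all groups Csf1 by probe 1 was highest in KPT P4 (1.57), KPT P6 (1.54) and K-LM P4 (1.43), and lowest in K-LM P3 (0.23) and P0 (0.15). Of 18 neighbour pairs 17 overlapped. The genes most like it were Pip4k2b (Pearson r = 0.81), Tacc2 (0.792) and Pygo2 (0.79) over the 65 RNA samples.

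Csf2 was at or near background in the parental line and was detected in some passages of every route. Its probe was well above background on 29 of the 70 arrays, and on none of the 4 P0 arrays. It was well above background in 4 of 5 samples of KPT P1, in 4 of 5 of T-LM P1, in all 4 samples of T-LM P4, of T-LM P6 and of K-LM P5, and in none of the samples of KPT P2, KPT P3, T-LM P2, T-LM P3 or K-LM P2. Levels of samples that were not well above background have no firm order.

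At P6 the Csf2 level was -5.77, -5.11, -4.46 and -5.39 in T-LM, against -7.26, -7.00, -7.34, -7.33 and -6.93 in KPT and -7.87, -8.27 and -6.70 in K-LM. The T-LM samples were above all samples of the other routes. P0 was at -8.41 and -8.25.

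From P0 to P6 Csf2 rose in T-LM, with a fitted change of 2.81 ± 0.388 (limma adjusted p = 4.43e-05). Because P0 was not well above background, the fold was at least 1.71, taking for each P0 array the lowest level that was well above background on it. From P3 to P6 in T-LM the fitted change was 2.10 ± 0.342 (limma adjusted p = 0.000361) and the fold at least 2.56, with each of the 3 P3 samples not well above background. From P0 to P6 in KPT the fitted change was 0.80 ± 0.521 (limma adjusted p = 0.461), and in K-LM 0.84 ± 0.585 (limma adjusted p = 0.491).

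At P6 Csf2 was higher in T-LM than in KPT by 1.92 ± 0.291 (limma adjusted p = 0.000103) and lower in K-LM than in T-LM by 2.20 ± 0.397 (limma adjusted p = 0.000727). K-LM over KPT was -0.28 ± 0.339 (limma adjusted p = 0.568). The probe was well above background on 1 of the 8 KPT P6 arrays and 1 of the 3 K-LM P6 arrays. With all routes and passages in 1 model the adjusted p was 0.0104 and 0.0192.

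At P5 Csf2 was highest in K-LM. Its samples were at -4.38, -4.72, -3.97 and -4.01. The KPT samples were at -6.08, -5.78, -7.05, -6.60 and -6.65, and the T-LM samples ran from -7.00 to -5.81 (median -6.59). All K-LM P5 samples were above all samples of the other routes. The difference was 2.16 ± 0.287 from KPT (limma adjusted p = 0.000258) and 2.23 ± 0.277 from T-LM (limma adjusted p = 0.000617). The probe was well above background in 1 of 5 KPT and 1 of 6 T-LM samples at P5, so the lower ends of these differences are mostly at background. Csf2 was the only member called in either, where 7.47% and 3.43% of probes were called. Of the neutrophil and granulocyte genes 2 of 4 tested were called higher in K-LM than in KPT at P5 and 0 of 4 higher than in T-LM. Their summed level was -1.20 to -0.48 in K-LM P5, -3.27 to -2.21 in KPT P5 and -2.59 to -1.80 in T-LM P5, and their part in the Csf2 difference was not tested. The RNA index was also lower in K-LM P5 (-7.23 to -6.19) than in KPT P5 (-6.06 to -4.76). With the index as a covariate the differences were 2.25 and 2.32, with adjusted p of 0.0187 and 0.0364. Whether the difference between routes changed from P5 to P6 was not tested.

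**Figure D3:**
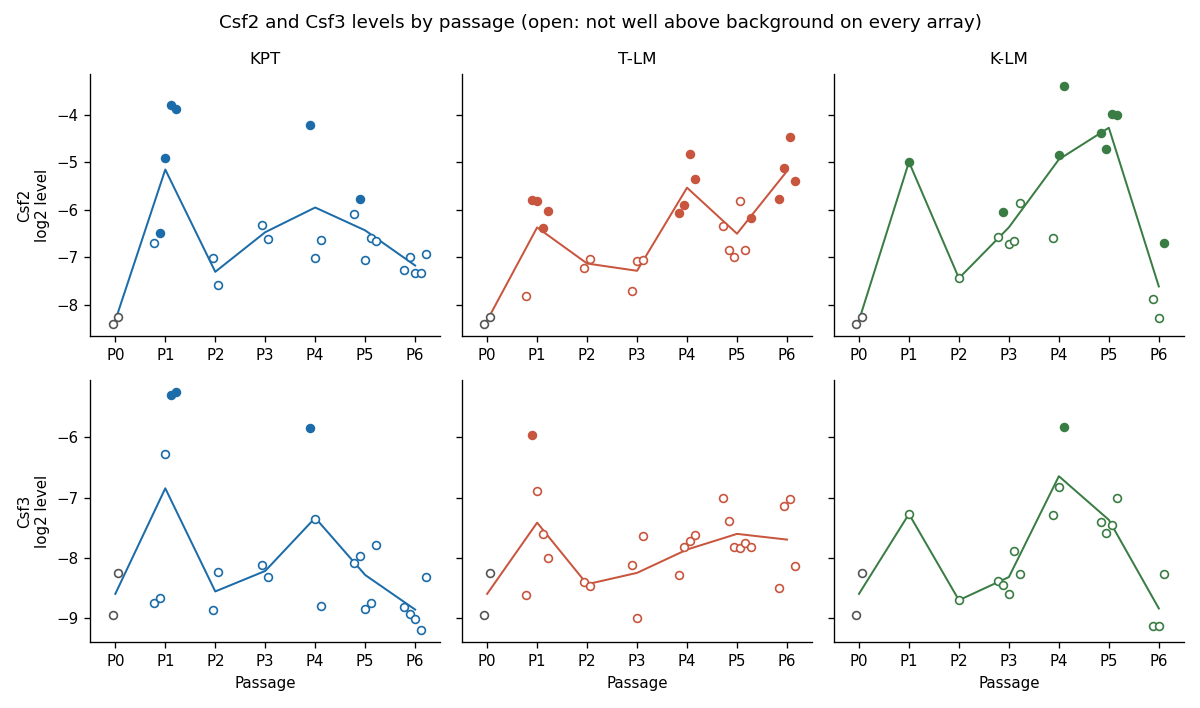
Levels of Csf2 (upper row) and Csf3 (lower row) on the vertical axis (log2 relative to the 75th percentile of the array) at each passage (horizontal axis) in the 3 routes. Points are RNA samples, filled where every array of the sample was well above background, grey outlines are P0, and lines join group means. The filled Csf2 points cluster at P1 in KPT, at P1, P4 and P6 in T-LM, and at P4 and P5 in K-LM.

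Csf2 also varied within the first passage. The KPT P1 samples were at -6.69, -6.48, -4.91, -3.80 and -3.87, in the order of replicates 1 to 5. The fitted change from P0 to P1 was 2.85 ± 0.698 (limma adjusted p = 0.012). The fold was at least 1.75 if KPT P1 replicate 1, which was not well above background, is taken at its measured level. From P1 to P6 in KPT Csf2 fell by 2.04 ± 0.528 (limma adjusted p = 0.00871), at least 2.83-fold on the same condition. That call was lost without any of KPT P1 replicates 3, 4 and 5 or any KPT P6 sample (adjusted p up to 0.029). In T-LM P1 the samples were at -7.82, -5.80, -5.82, -6.39 and -6.02, and replicate 1, whose title marks it as a lot, was the lowest. Without it the change from P0 to P1 in T-LM was 1.99 ± 0.372 (limma adjusted p = 0.000833), against 1.63 ± 0.456 (limma adjusted p = 0.028) with it.

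Fibroblast marker genes were higher in the same KPT P1 samples. The summed level of 8 such genes, as log2 of the sum, was -1.30 and -1.22 in replicates 1 and 2 and 1.17, 3.65 and 3.26 in replicates 3, 4 and 5, against -4.67 and -4.47 in P0. In KPT P5 replicate 1 the sum was 4.95 while Csf2 was at -6.08, not well above background. Over the 65 RNA samples the sum correlated with Csf2 at Pearson r = 0.62 and with Il34 at 0.31, and the sum of 7 neutrophil and granulocyte genes correlated with Csf2 at 0.62. Il34 correlated at 0.43 with the sum of 5 lung epithelial genes and at 0.31 with that of 9 renal epithelial genes. The samples share groups and slides. From P0 to P6, KPT had 2 of 7 tested fibroblast genes called higher, T-LM had 6 of 8 and K-LM had 5 of 8, with median changes of 4.37, 5.04 and 5.41 against medians over all probes near 0. Dcn, a small proteoglycan, rose by 5.30, 7.35 and 6.28 (limma adjusted p = 3.95e-07, 2.15e-07 and 1.56e-05), and Pdgfrb, a receptor of mural cells and fibroblasts, by 4.49, 4.58 and 4.95 (limma adjusted p = 4.63e-06, 3.86e-05 and 3.3e-06). Of the neutrophil and granulocyte genes T-LM had 2 of 4 called higher from P0 to P6, among them S100a8 at 3.99 (limma adjusted p = 0.000384). KPT had 0 of 3 and K-LM 0 of 4. The part of these genes in the change of Csf2 was not tested. The fibroblast sum was above P0 in the groups where Il34 was high, at -0.77 to 0.39 in KPT P6, 1.22 to 2.99 in T-LM P6 and 0.18 to 1.79 in K-LM P6. In T-LM P1 the sums were -1.08, 2.70, 3.69, 4.20 and 3.90 while Il34 was between -4.17 and -3.19. In KPT P1 Il34 was at -4.19, -4.09, -2.24, -2.12 and -2.51 for replicates 1 to 5. Replicates 3, 4 and 5 there had both the higher Il34 and the higher sums. In KPT P4 Il34 was at 0.10, -0.56 and -2.11 where the sums were 1.88, 0.50 and -2.12. The lung epithelial sum was -5.53 to -5.38 in P0, -4.91 to -4.57 in KPT P6, -2.85 to -0.47 in T-LM P6 and -3.89 to -3.27 in K-LM P6. Of the lung genes T-LM had 2 of 4 tested called higher from P0 to P6 (median 2.73), 4 of 4 from P1 to P6 and 3 of 4 over KPT at P6 (median 3.10), and KPT and K-LM had 1 of 1 from P0 to P6. Of all probes 9.36% were called from P1 to P6 in T-LM and 11.5% in T-LM over KPT at P6. The part of any of these markers in the Il34 level was not tested. In bulk samples fewer cells of a type and less RNA per cell cannot be told apart.

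Across passages the Csf2 level in KPT was -5.15 ± 1.4 (SD, n = 5), -7.30 ± 0.40 (n = 2), -6.47 ± 0.21 (n = 2), -5.95 ± 1.5 (n = 3), -6.43 ± 0.50 (n = 5) and -7.17 ± 0.19 (n = 5) from P1 to P6. In T-LM the same passages gave -6.37 ± 0.85 (n = 5), -7.13 ± 0.13 (n = 2), -7.28 ± 0.37 (n = 3), -5.53 ± 0.56 (n = 4), -6.50 ± 0.47 (n = 6) and -5.18 ± 0.55 (n = 4). In K-LM they gave -4.99 and -7.44 in the single samples, then -6.37 ± 0.39 (n = 5), -4.94 ± 1.6 (n = 3), -4.27 ± 0.35 (n = 4) and -7.61 ± 0.82 (n = 3).

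In the order of group means Csf2 was highest in K-LM P5 (-4.27), K-LM P4 (-4.94) and the single K-LM P1 sample (-4.99). Of the 18 neighbour pairs 17 overlapped, and the lower part of the order, where most samples were not well above background, is not firm. The 3 samples of K-LM P4 were far apart, at -6.59, -4.84 and -3.38. Csf2 varied over the passages of T-LM (F = 7.92, limma adjusted p = 0.00165) and K-LM (F = 10.0, limma adjusted p = 0.00131), and in KPT F was 3.76 (limma adjusted p = 0.0382). The genes most like Csf2 over the 65 RNA samples were Phlda1 (Pearson r = 0.849), Ptgs2, which encodes the inducible cyclooxygenase (0.807), and Il11, a cytokine of the IL-6 family (0.787).

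Csf3 was well above background on 5 of the 70 arrays, and had too few for a test in the route fits from P0 or P3 to P6. The 5 samples were KPT P1 replicates 4 and 5 (-5.29 and -5.24), KPT P4 replicate 1 (-5.85), T-LM P1 replicate 2 (-5.96) and K-LM P4 replicate 5 (-5.82). Csf2 was well above background in each of them. In the order named, these 5 samples had the summed fibroblast levels 3.65, 3.26, 1.88, 2.7 and 4.05. The highest sums of the series, 5.67 in T-LM P5 replicate 1 and 4.95 in KPT P5 replicate 1, came without Csf3 well above background. P0 was at -8.94 and -8.25. The group means from P1 to P6 lay between -8.85 (P6) and -6.84 (P1) in KPT, between -8.44 (P2) and -7.41 (P1) in T-LM, and between -8.84 (P6) and -6.64 (P4) in K-LM, with every one of the 18 neighbour pairs overlapping. From P1 to P6 in KPT, where it could be tested, Csf3 changed by -1.80 ± 0.609 (limma adjusted p = 0.0394). It entered that fit only through 2 KPT P1 arrays and 1 KPT P4 array. No P0 or KPT P6 array was well above background, so the change has no firm size. Csf2 and Csf3 correlated at Pearson r = 0.76 over the 65 RNA samples, with most values of Csf3 not well above background.

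The receptor gene Csf1r was detected in every library by its brightest probe and varied more between samples of a group than any other member well above background on all arrays. Its level was -4.67 and -4.12 in P0. At P6 the KPT samples were at -3.74, -4.04, -3.70, -4.80 and -4.33. The T-LM samples were at -2.91, -3.0, -2.59 and -3.62, and the K-LM samples at -4.0, -4.07 and -4.18. By these averaged levels the T-LM P6 samples were all above P0, and the samples of the other routes overlapped with it. The P0 samples read lower on the late slide, at -5.13 and -4.86, than on their first arrays, at -4.22 and -3.38. Against the first P0 arrays the T-LM P6 samples overlapped with P0. Against the late P0 arrays all K-LM P6 samples, which lay on the same slide, were above P0.

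No Csf1r change from P0 to P6 was called. It was -0.17 ± 0.919 in KPT (limma adjusted p = 0.956), 0.77 ± 0.882 in T-LM (limma adjusted p = 0.701) and 0.71 ± 0.684 in K-LM (limma adjusted p = 0.659). At P6 the difference of T-LM from KPT was 0.85 ± 0.286 (limma adjusted p = 0.047), and -0.44 on the 1 slide that held both groups. The pooled SD within groups was 1.08 for Csf1r, against 0.489 for Il34 and 0.461 for Csf1. The 2 other probes correlated with the first at Pearson r = 0.64 and 0.76, and were well above background on 43 and 7 of the 70 arrays.

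**Figure D4:**
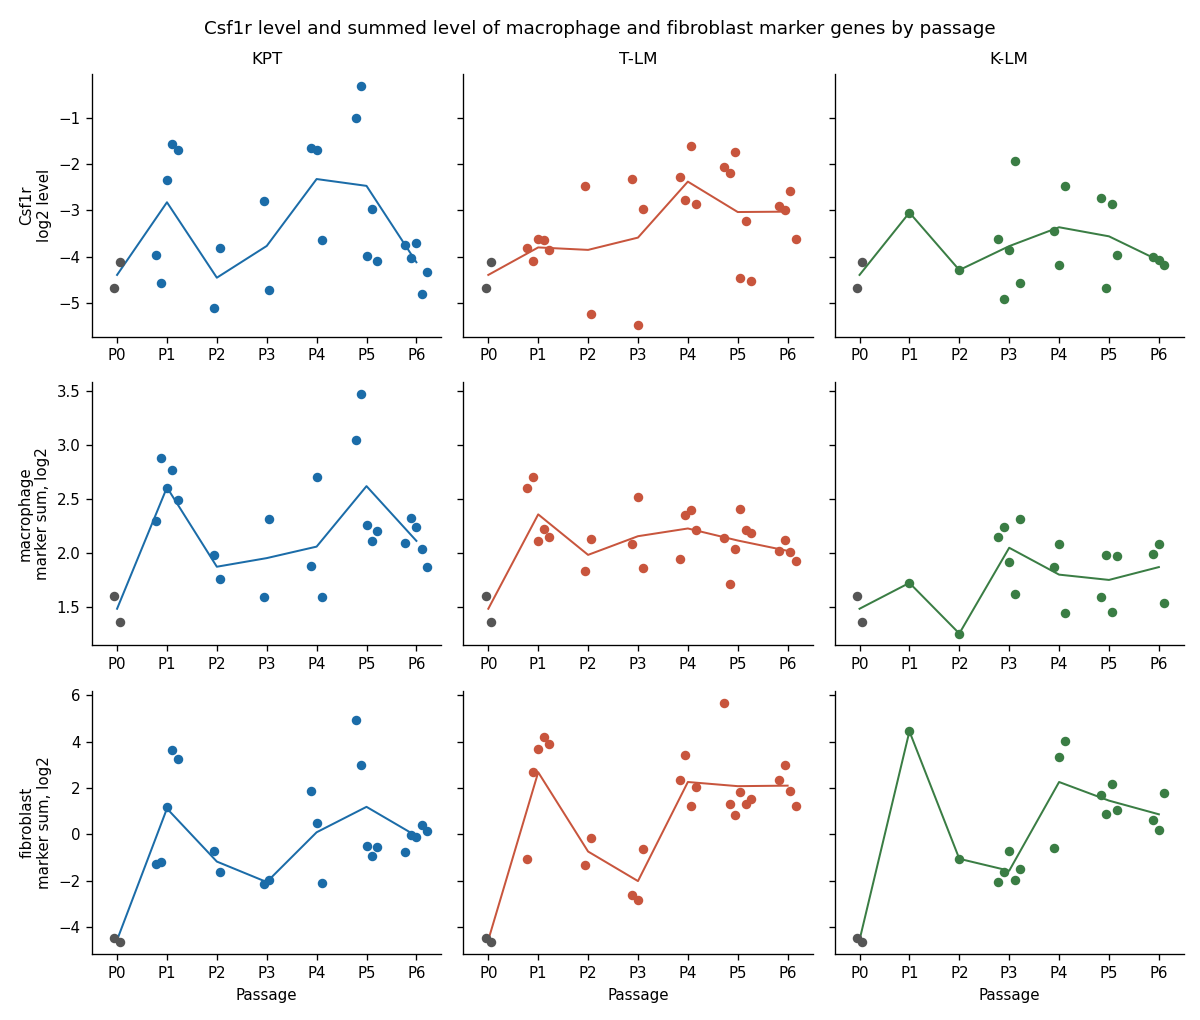
Csf1r level (upper row, log2 relative to the 75th percentile of the array) and the log2 summed level of 16 macrophage (middle row) and 8 fibroblast marker genes (lower row) on the vertical axes, at each passage (horizontal axis) in the 3 routes. Points are RNA samples, grey points are P0 and lines join group means. The 2 KPT P5 samples with Csf1r at -1.0 and -0.31 also have the highest macrophage sums of the study, 3.05 and 3.47. Over all 65 RNA samples Csf1r correlated with the macrophage sum, in which the brightest genes weigh most, at Pearson r = 0.21.

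The range was wide in KPT P5, at -1.0, -0.31, -3.98, -2.98 and -4.10 for replicates 1 to 5. In the same samples 12, 13, 7, 7 and 7 of the 16 macrophage marker genes were well above background, and their summed level was 3.05, 3.47, 2.26, 2.11 and 2.20. In P0 4 of the 16 genes were well above background on all arrays and 10 on none. Over the whole series Cd163 was well above background on none of the 70 arrays, Mertk on 1, Fcgr1 on 2, Spi1 on 4 and C1qa on 9. Mrc1 was on 10, Ptprc on 15, Laptm5 on 16 and Adgre1 on 18. Tyrobp was well above background on 39, Fcer1g on 41, Lyz2 on 67 and Cd14 on 69. Cd68, Itgam and Aif1 were on all 70. Group ranges of the macrophage sum lay between 1.36 and 1.60 in P0 and reached from 2.11 to 3.47 in KPT P5, from 1.87 to 2.32 in KPT P6, from 1.92 to 2.12 in T-LM P6 and from 1.53 to 2.08 in K-LM P6. Over the 65 RNA samples Csf1r correlated at Pearson r = 0.21 with the macrophage sum and at 0.45 with the fibroblast sum. The macrophage sum adds linear levels, so the brightest genes weigh most in it. By number, 7, 6, 9, 9 and 12 of the 16 genes were well above background in KPT P1 replicates 1 to 5. There Csf1r was at -3.97, -4.58, -2.34, -1.56 and -1.69. KPT P4 had 12, 12 and 5, with Csf1r at -1.65, -1.69 and -3.64. T-LM P5 replicate 3 and K-LM P3 replicate 4 had 5 each, with Csf1r at -1.74 and -1.93. The part of these markers in the Csf1r level was not tested.

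From P0 to P6 T-LM had 4 of 12 tested macrophage genes called higher (median change 1.51), against 7.44% of all probes. KPT had 0 of 12 (median -0.19) against 3.91%, and K-LM had 0 of 10 (median 0.18) against 4.88%. Tyrobp, an adaptor of myeloid receptors, changed most in T-LM, by 5.97 (limma adjusted p = 0.00161). At P6 7 of 11 tested were higher and 1 lower in T-LM than in KPT, where 11.5% of all probes were called. In K-LM over T-LM at P6 8 of 11 were lower and 0 higher, where 12% of all probes were called. The genes most like Csf1r over the 65 RNA samples were H4c11 (Pearson r = 0.715), Lyz2, a lysozyme gene of macrophages that is also on the macrophage list (0.715), and Cln3 (0.709). From P1 to P6 the Csf1r means in KPT were -2.83 ± 1.4 (SD, n = 5), -4.45 ± 0.91 (n = 2), -3.77 ± 1.4 (n = 2), -2.33 ± 1.1 (n = 3), -2.47 ± 1.7 (n = 5) and -4.12 ± 0.46 (n = 5). In T-LM they were -3.80 ± 0.19 (n = 5), -3.85 ± 1.9 (n = 2), -3.59 ± 1.7 (n = 3), -2.38 ± 0.58 (n = 4), -3.04 ± 1.2 (n = 6) and -3.03 ± 0.43 (n = 4). K-LM had -3.05 and -4.29 in its single samples, then -3.78 ± 1.2 (n = 5), -3.37 ± 0.86 (n = 3), -3.56 ± 0.92 (n = 4) and -4.09 ± 0.092 (n = 3). All 18 neighbour pairs in the order of these means overlapped.

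Few other receptors and haematopoietic growth factors were called from P0 to P6. Of 6 other receptors of the ligands, 5 were tested and none was called from P0 to P6 in any route. Csf2ra, which encodes the ligand-binding chain of the GM-CSF receptor, had the largest change in KPT, 0.27 (limma adjusted p = 0.948), and in T-LM, 2.51 (limma adjusted p = 0.0411). In K-LM it was Sdc1, 0.61 (limma adjusted p = 0.0659). The T-LM change from P3 to P6 was called for 3 of the 5, against 7.13% of all probes. All 3 rose: Csf2ra by 3.27 (limma adjusted p = 0.00326), Csf2rb by 1.66 (limma adjusted p = 0.00641) and Csf2rb2 by 2.05 (limma adjusted p = 0.00224), the last 2 named after their values were seen. At P6 Csf2ra was higher in T-LM than in KPT by 2.18 (limma adjusted p = 5.93e-06), and K-LM differed from T-LM by -2.86 (limma adjusted p = 1.6e-05). Of 10 other haematopoietic growth factors and receptors, 1 was called, Il3ra in K-LM, which encodes the interleukin-3 receptor alpha chain and rose by 4.17 (limma adjusted p = 0.00114).

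Of 13 inducers and regulators of colony-stimulating factor transcripts, KPT had 1 of 11 tested called higher from P0 to P6. T-LM had 3 of 10, K-LM had 1 of 11, and none fell. Of all probes 3.91%, 7.44% and 4.88% were called in KPT, T-LM and K-LM. Median changes were -0.36, 1.18 and 0.52, against medians near 0 over all probes. The T-LM change from P3 to P6 was called for 4 of 10, all higher, against 7.13% of all probes. Over KPT at P6, T-LM had 4 of 11 higher and K-LM also 4 of 11, against 11.5% and 16% of all probes called. Il1r1, the signalling receptor of interleukin-1, was called in all 3 routes, with changes of 2.55 in KPT (limma adjusted p = 0.00199), 2.09 in T-LM (limma adjusted p = 0.00274) and 1.86 in K-LM (limma adjusted p = 0.00261). Il1b, an inducer of Csf2 and Csf3 in many cells, changed by 4.06 in T-LM (limma adjusted p = 0.0104). At P6 it was higher in T-LM than in KPT by 4.40 (limma adjusted p = 1.51e-08) and the difference of K-LM from T-LM was -4.38 (limma adjusted p = 1.42e-06). Macrophage genes differed in the same comparisons, and their part in the Csf2ra and Il1b differences was not tested. Of 11 signalling genes of the CSF1 receptor, T-LM had 2 of 7 tested called higher from P0 to P6, against 7.44% of all probes. KPT had 0 of 8 against 3.91%, and K-LM had 0 of 6 against 4.88%.

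**Figure D5:**
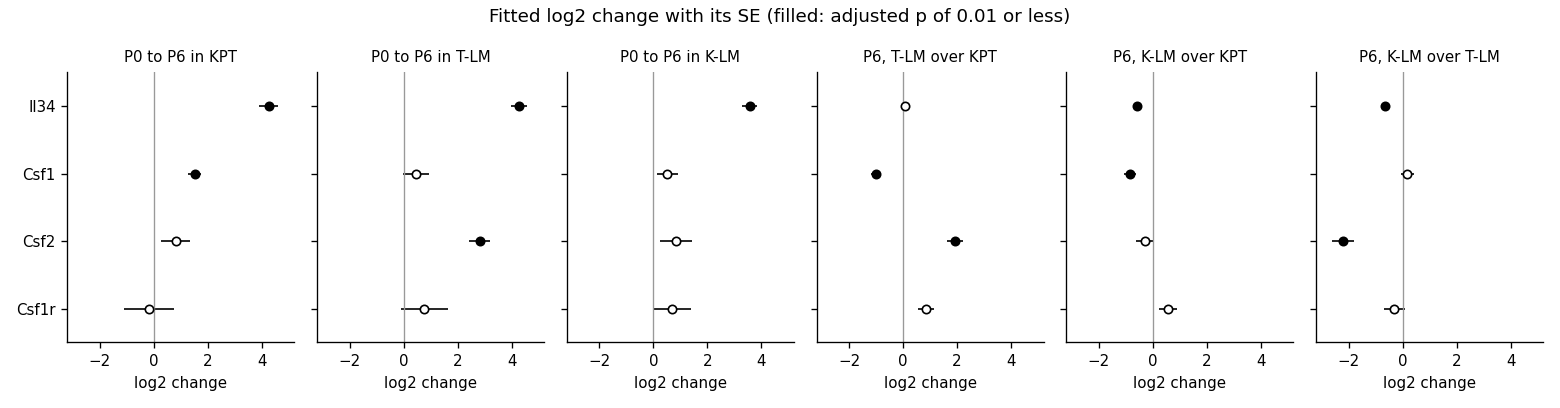
Fitted log2 change (horizontal axis) with its SE (bars) for Il34, Csf1 by its brightest probe, Csf2 and Csf1r from P0 to P6 in each route and between the routes at P6. Filled points have an adjusted p of 0.01 or less. Il34 is filled in all 3 routes from P0 to P6, Csf1 in KPT and Csf2 in T-LM.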

How the data were processed

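Cy5-labelled RNA was hybridised to 1-colour Agilent SurePrint G3 Mouse arrays. The authors deposited scanner output, whose processed signal is an intensity that the scanner software background-subtracted and detrended within each array, and a table of log2 values normalised by the authors between arrays, by a method not given in the sources used here, which served as an alternative. Of 62976 spots, 3671 controls were dropped, and spots flagged as outliers were left out before spots of a probe were averaged. Log2 signals were scaled to the 75th percentile over 11289 probes well above background on all arrays. Probes were named through their RefSeq transcript in a RefSeq table of GRCm38.p6 (28026 of 55681 matched). The probe with the highest mean level represented a gene.

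Tests used limma 3.58.1 in R 4.3.3 with Benjamini-Hochberg adjustment over all tested probes (those well above background on 2 or more of the arrays fitted), at an adjusted p of 0.01 or less. Fits for KPT and T-LM used first arrays. Fits with K-LM P6 held all P0 arrays and repeats, a late slide term, and a random block for each RNA sample estimated with duplicateCorrelation on 4000 probes. Groups came from the labels, including the lot-titled T-LM P1 sample, and repeat arrays were averaged in printed levels. The precision rests on the number of arrays. The files hold no spot mean, so the normexp alternative (offset 50) used spot medians. Alternatives covered scaling, background, filters, flagged spots, samples fitted, slide, RNA index, pairing, probe and each sample left out. All 5 genes were named in every group; genes of other lists were named where called from P0 to P6 in at least 2 routes or largest in a route. A result that this rule would name is not reported here. Between P0 and P6 in KPT, T-LM and K-LM, endothelial genes had 0 of 2, 0 of 2 and 0 of 3 called, T and B cell genes 0 of 1 in each, and renal epithelial genes 1 of 4, 1 of 6 and 0 of 5. Of all probes 3.91%, 7.44% and 4.88% were called there. The members and lists were chosen with earlier results of these data known. Fits were checked on simulated data.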

Additional observations from a re-analysis of the deposited data

Results flagged for a closer look

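Of 45 groups of 4 to 10 samples examined for the 5 genes, 1 held a sample far from the rest, and chance gives such a sample in about 1 in 20 groups. Csf1 by its brightest probe was 0.72 in KPT P5 replicate 2, while the nearest other sample of that group was at 1.2, a gap of 0.727 of the range of the group. The same library had the highest Csf1r level of the study, at -0.31, and the highest summed level of macrophage marker genes, at 3.47.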

How the results depend on the processing

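Il34 from P0 to P6 kept its call and direction under every alternative run, with changes of 3.98 to 4.49 in KPT, 4.02 to 4.40 in T-LM and 3.27 to 3.68 in K-LM, and so did Csf2 in T-LM (1.45 to 3.03 from P0, 1.23 to 2.29 from P3). Scaling to all probes moved the median of all probes by between -0.41 and 0.20, and no called change turned its sign.

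The number of members called stayed within 1.5 times of the main number in 210 of 264 checks other than leaving out samples, and moved in 54. Among probes well above background on all arrays of a fit it was 1 from P0 and from P3 to P6 in T-LM and from P3 to P6 in K-LM, 1 from P1 to P6 in KPT, 1 over the passages of T-LM and of K-LM, 1 at P6 in T-LM over KPT and in K-LM over T-LM, 1 at P5 in T-LM over KPT and 0 in both other P5 comparisons, because Csf2 was not tested there or because fewer probes were. With the RNA index as a covariate it was 0 from P3 to P6 and from P0 to P1 in KPT, 1 from P1 to P6 and over the passages of KPT, 1 at P5 in T-LM over KPT and 0 in both other P5 comparisons. With scaling to all probes it was 0 from P3 to P6 and from P0 to P1 in KPT, 2 from P1 to P6 in T-LM and 1 at P6 in K-LM over T-LM. With no filter on dim probes it was 0 from P3 to P6 and from P0 to P1 in KPT and at P6 in K-LM over KPT, and 1 from P1 to P6 in KPT and at P6 in K-LM over T-LM. With all routes and passages in 1 model it was 0 from P3 to P6 in KPT and in all 3 comparisons at P6. With only the compared groups it was 2 from P3 to P6 in KPT, 0 from P0 to P1 and 1 from P1 to P6 there, and 1 (Csf2) for the P3 to P6 change in T-LM over KPT and in K-LM over T-LM, as it was for K-LM over T-LM with first arrays and no late slide term. The deposited series values gave 1 from P3 to P6 in K-LM, and 2 from P0 to P1 in KPT and from P1 to P6 in T-LM. Normexp gave 1 from P3 to P6 in K-LM and from P1 to P6 in KPT, and a floor on dim values gave 1 from P1 to P6 in KPT, at P5 in T-LM over KPT and at P6 in K-LM over KPT. The slide as a random block gave 2 from P0 to P1 in KPT and 1 at P5 in T-LM over KPT. It was not run for fits with the late slide term. On the late slide alone it was 2 from P0 to P6 in K-LM (with Csf1r at 0.91, limma adjusted p = 0.00468) and 1 at P6 in K-LM over KPT. The cause was not tested.

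Leaving out 1 RNA sample at a time gave 1 to 2 members from P0 to P6 in KPT, 0 to 1 from P3 to P6 in KPT and in K-LM, 0 to 2 from P0 to P1 in KPT, 0 to 1 in T-LM, 1 to 3 from P1 to P6 in KPT, 0 to 1 at P5 in T-LM over KPT, 0 to 2 at P6 in K-LM over KPT and 1 to 2 in K-LM over T-LM.

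Signs turned only for uncalled changes from P0 to P6. Csf1r in KPT was 0.13 with all routes in 1 model, 0.54 on the late slide alone, 0.00 with the RNA index and -0.58 to 0.25 with 1 sample left out, and in K-LM -0.29 without the late slide term. By the next brightest probe Csf1 was -0.53 in T-LM, and Csf1r -0.22 in T-LM and -0.05 in K-LM.

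Samples with the same number did not pair by the check, with correlations of deviations from -0.50 to 0.58. With the replicate number as a block (replicate block) the number of members called was 0 from P3 to P6 and from P0 to P1 in KPT, 1 from P1 to P6 in KPT, over the passages of K-LM and at P6 in K-LM over KPT, and Csf1r from P0 to P6 in KPT was 0.88. Signal over background limits Csf2 and Csf3, whose dim samples have no firm level, and groups of 1 or 2 samples limit P0, P2 and KPT P3.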
